A study of Mus musculus with 6 samples.

Results

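The IgLON genes encode a small family of cell-surface proteins of neurons, and 4 of them, *Ntm*, *Lsamp*, *Opcml* and *Negr1*, were followed here in GFP+ cells sorted from the dorsal spinal cord of mouse embryos over 3 stages, E10.5 to E12.5. The members were taken by name, as the array clusters whose platform symbol was exactly 1 of these 4 symbols. Each gene had 1 such cluster, so the 4 genes stand for 4 of the 14860 genes that a cluster names alone, and for 4 of the 23332 transcript clusters measured. The family was chosen by its differences in signal between the stages of these same arrays, and *Ntm* leads it for that reason. *Ntm*, *Lsamp* and *Negr1* are also on the study's own list of stage-dependent genes, which was drawn from these arrays. The differences between stages are therefore described below with their values and errors. The p-values given come from a fit over all clusters and are not read as tests of the members. The annotation of the mouse genome (GRCm38.p6) holds 5 IgLON genes, and the platform's table pairs no cluster with the fifth, *Iglon5*, which was not analysed here.

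All cells came from *Wnt1-cre*;*Rosa26mTmG* embryos, with 2 arrays at each of the 3 stages and no other treatment or genotype. In these embryos Cre is made where *Wnt1* is active, which includes dorsal neural tube and neural crest, and those cells and all their descendants then carry membrane GFP in place of tdTomato. The labels call the sorted cells commissural neurons, but the sort takes every cell with this history. Whether the 2 arrays of a stage hold RNA of different litters is not stated, so part of the variation between them may be technical. The standard errors and p-values cover only variation between arrays of the same stage, pooled over the 3 stages. They are moderated, meaning that the spread of each cluster is drawn toward that of all clusters. RNA was hybridised to Affymetrix mouse exon arrays, and the deposited values are log2 signals, each summarising the probes of 1 locus.

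IgLON proteins carry a short row of immunoglobulin domains, have no segment that crosses the membrane, and are held on the outer face of the cell by a glycosylphosphatidylinositol (GPI) anchor. They bind to themselves and to each other across and along cell surfaces, and depending on the neuron they promote or restrain the growth of neurites and the formation of synapses. Neurotrimin, the product of *Ntm*, and its relatives were first found as surface proteins of brain neurons, and their genes are active in many neurons that are extending axons.

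*Ntm* and *Opcml* lie side by side on chromosome 9 with no other protein-coding gene annotated between them, whereas *Lsamp* lies on chromosome 16 and *Negr1* on chromosome 3. RefSeq lists 6 promoter windows for the 4 genes (250 bases before to 50 after an annotated start, GRCm38.p6), 2 each for *Ntm* and *Lsamp* and 1 each for *Opcml* and *Negr1*. The windows of *Ntm* and *Negr1*, the members whose signals differed most between stages, are shown with every CG dinucleotide in capitals. The clusters sum over the probes of a whole locus, so these arrays do not say which start was in use.
*Ntm*, upstream start, chr9:29413403-29413702, minus strand: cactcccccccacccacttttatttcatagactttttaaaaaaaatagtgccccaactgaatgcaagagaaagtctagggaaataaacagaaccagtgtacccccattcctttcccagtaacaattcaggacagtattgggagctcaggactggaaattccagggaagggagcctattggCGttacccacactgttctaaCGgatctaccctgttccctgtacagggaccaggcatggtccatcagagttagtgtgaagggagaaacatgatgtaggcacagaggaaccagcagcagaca
*Ntm*, downstream start, chr9:29412636-29412935, minus strand: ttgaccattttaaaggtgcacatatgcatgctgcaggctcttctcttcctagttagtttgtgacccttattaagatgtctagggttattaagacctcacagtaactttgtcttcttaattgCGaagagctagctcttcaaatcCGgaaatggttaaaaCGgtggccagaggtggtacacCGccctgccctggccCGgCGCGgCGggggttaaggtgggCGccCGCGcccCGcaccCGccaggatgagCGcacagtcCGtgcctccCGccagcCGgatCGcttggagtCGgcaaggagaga
*Negr1*, chr3:156561544-156561843, plus strand: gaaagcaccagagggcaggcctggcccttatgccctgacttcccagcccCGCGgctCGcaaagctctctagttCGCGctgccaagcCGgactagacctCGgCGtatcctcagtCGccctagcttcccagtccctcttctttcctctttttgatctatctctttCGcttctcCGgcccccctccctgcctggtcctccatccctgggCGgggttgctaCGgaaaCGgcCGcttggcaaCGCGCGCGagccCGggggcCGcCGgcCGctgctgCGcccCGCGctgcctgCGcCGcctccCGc
The starts of *Ntm* differ in composition. The upstream window holds 2 CG dinucleotides, fewer than most windows of the table, whose median is 7.0. The downstream window holds 19, and that of *Negr1* holds 29, more than 87.1% of the 32851 windows. The first and second windows of *Lsamp* hold 12 and 3, and that of *Opcml* holds 9. Proneural factors bind E-boxes, and both strands of the windows were searched for a pair of them that do not overlap. The palindrome CAGCTG was in 0 of the 6 windows and in 16.3% of all windows. The other, CAGATG, was in 1 of the 6 on either strand, the second window of *Lsamp*, and in 17.2% of all windows. A missing match says only that these letters are not in the window.

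The arrays differed in background, and this touches every value below. As a limit of detection, the 95th percentile was taken over 844 clusters of olfactory, vomeronasal, trace amine and taste receptor genes, which neural tube cells are not known to use. On the replicate 1 arrays this percentile lay between 6.17 and 6.59 on the log2 signal scale, and on the replicate 2 arrays between 5.37 and 5.39. Over the mean of all arrays the limit was 5.85. The first E10.5 array was least like the others (mean correlation over clusters 0.890, where each of the remaining arrays had 0.948 to 0.955). Of the 4 members, *Ntm* and *Lsamp* had a mean signal above the limit, and *Opcml* (5.71) and *Negr1* (5.04) did not. Signals of different clusters depend on their probes and were not compared as levels.

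*Ntm*, which encodes neurotrimin, had the largest difference of the family. Its cluster, 6994266, had a log2 signal of 5.70 in replicate 1 and 6.29 in replicate 2 at E10.5, then 7.31 and 7.12 a day later, and 7.67 and 8.42 at E12.5. Every array of a stage was thus above every array of the stage before, a pattern shown by 1.57% of all clusters and by no other member. Stage means were 5.998 ± 0.42, 7.21 ± 0.14 and 8.04 ± 0.53 in the order of age (SD, n = 2). The neighbouring stages did not overlap, but the mean of E12.5 exceeded that of E11.5 by 0.83 with a standard error of 0.38, about as far as the 2 arrays of E12.5 lay apart (0.75). Between E10.5 and E12.5 the signal was higher by 2.05 (standard error 0.38), a 4.13-fold difference on the linear scale. It was higher by 1.97 within replicate 1 and by 2.12 within replicate 2. The earlier day accounted for 1.21 of this, or 59.3%. The replicates placed it differently, since the earlier step was 1.61 in replicate 1 and 0.82 in replicate 2, and the later step was 0.36 and 1.30. The later step minus the earlier one was -0.38 with a standard error of 0.66, so their sizes were within the error of each other. On the first E10.5 array it was below that array's own limit and above 83.1% of the receptor clusters, and on the other 5 arrays it was above the limit. The difference thus starts from a level near background in 1 of the 2 E10.5 arrays. Without that array it was 1.75, and with that signal set to the limit of its array it was 1.60. In such bulk samples fewer cells of a type and less RNA per cell cannot be told apart.

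**Figure D1:**
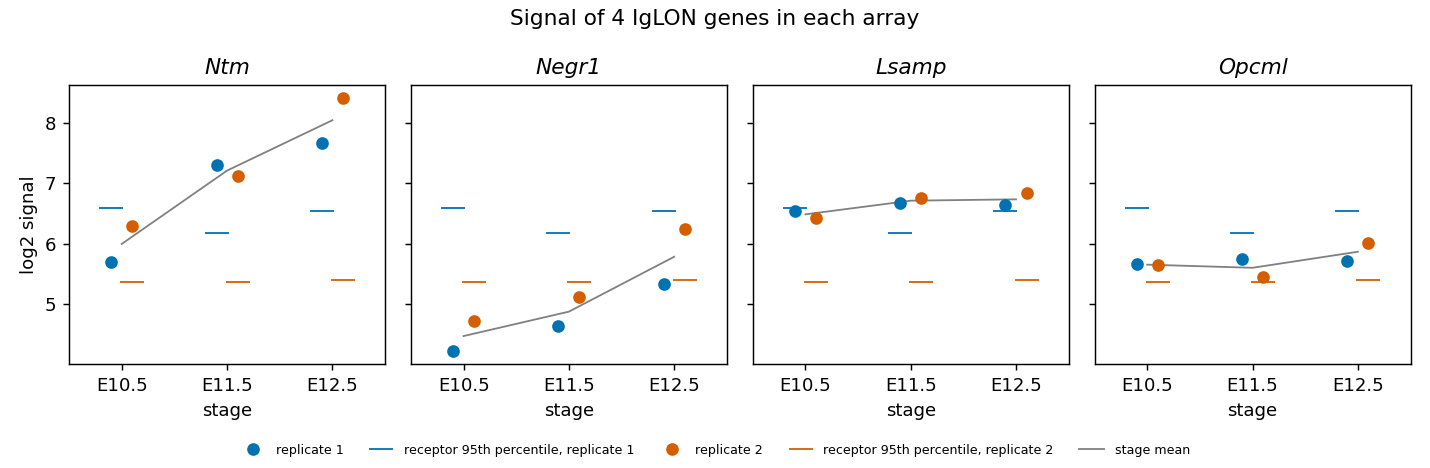
Log2 signal of the 4 IgLON genes (vertical axis) at each stage (horizontal axis), with a point for each array, a grey line through the stage means, and a short bar at the 95th percentile of receptor clusters on the same array. *Ntm* lay at 5.70 and 6.29 at E10.5 and at 7.67 and 8.42 at E12.5, *Negr1* was above the bar on 1 array, and stage means of *Lsamp* and *Opcml* differed by 0.25 and 0.21. Heights are not comparable between genes.

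*Negr1*, which encodes a regulator of neurite growth and is known from human genetics of body weight, was the other member with a difference above 1, but most of its signals were at background. Its cluster, 6902746, had a log2 signal of 4.22 in replicate 1 and 4.73 in replicate 2 at E10.5, then 4.63 and 5.12 a day later, and 5.33 and 6.24 at E12.5. Both E12.5 arrays were above all earlier ones, while E10.5 and E11.5 overlapped. Stage means were 4.47 ± 0.36, 4.88 ± 0.35 and 5.79 ± 0.64 in the order of age (SD, n = 2). The first 2 stages differed by 0.40 with a standard error of 0.41, and E12.5 exceeded E11.5 by 0.91 with the same error. Between E10.5 and E12.5 the signal was higher by 1.31 (standard error 0.41), with 1.12 within replicate 1 and 1.51 within replicate 2. The later step exceeded the earlier by 0.50 with a standard error of 0.72, again within the error. Only the E12.5 replicate 2 array had a signal above the limit of its array, and without it the difference was 0.86. At E10.5 the signal was above 48.5% of receptor clusters in replicate 1 and 87.7% in replicate 2, so at that stage it was not separable from background, and all 4 signals of E10.5 and E11.5 were below the limits of their arrays. With the E10.5 signals set to those limits the mean would be 5.98, above the 5.79 measured at E12.5, so no fold is given. The E12.5 replicate 1 signal was also below its limit (6.55) but was left as measured. The comparison therefore does not show a lower signal at E12.5.

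*Lsamp*, which encodes the limbic system-associated membrane protein, differed little between stages. Its cluster, 6840923, had a log2 signal of 6.54 in replicate 1 and 6.43 in replicate 2 at E10.5, then 6.67 and 6.76 a day later, and 6.63 and 6.84 at E12.5. The E10.5 arrays were the lowest, and E11.5 and E12.5 overlapped. Means were 6.49 ± 0.077, 6.71 ± 0.063 and 6.74 ± 0.14 in the order of the stages (SD, n = 2). From E10.5 to E12.5 the signal differed by 0.25 (standard error 0.29, or 0.10 without moderation), a 1.19-fold difference, of which 0.23 fell in the earlier day. It was 0.093 within replicate 1 and 0.40 within replicate 2. Signals were above the limit on 5 arrays, and the E10.5 replicate 1 array was just under it.

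*Opcml*, which encodes the opioid-binding cell adhesion molecule and is the chromosomal neighbour of *Ntm*, also differed little. Its cluster, 6987685, had a log2 signal of 5.67 in replicate 1 and 5.64 in replicate 2 at E10.5, then 5.75 and 5.46 a day later, and 5.72 and 6.02 at E12.5. The stages overlapped except that both E12.5 arrays were above both E10.5 arrays, by as little as 0.052 within replicate 1. Means were 5.65 ± 0.017, 5.60 ± 0.20 and 5.87 ± 0.21 in the order of the stages (SD, n = 2). From E10.5 to E12.5 the signal differed by 0.21 (standard error 0.30, or 0.17 without moderation), a 1.16-fold difference, and by 0.064 without the E12.5 replicate 2 array. That between E11.5 and E10.5 was -0.052, and it turned to 0.066 under quantile normalization and to 0.038 after centring each array on its median. The signal was above the limit on the 3 replicate 2 arrays and below it on the 3 replicate 1 arrays.

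Set side by side, the measured differences were larger in *Ntm* and *Negr1* than in *Lsamp* and *Opcml*, with the E10.5 signals of *Negr1* at background. The difference over the 2 days was greater in *Ntm* than in *Lsamp* by 1.80, with 1.88 in replicate 1 and 1.72 in replicate 2. It was greater in *Ntm* than in its neighbour *Opcml* by 1.83, with 1.92 and 1.75. *Opcml* was below the limit on every replicate 1 array, so the 1.92 is measured against signals near background. Between *Ntm* and *Negr1* the gap was 0.73, with 0.85 and 0.61. *Lsamp* and *Opcml* were 0.035 apart, with 0.042 and 0.028. *Ntm* and *Negr1* thus differed more than the other pair in both replicates. *Lsamp* and *Opcml* had no settled order, since quantile normalization gave 0.25 for *Lsamp* and 0.35 for *Opcml*, and without the E12.5 replicate 1 array the values were 0.35 and 0.36. Across the 6 arrays, which share their stages and replicate numbers, the signal of *Ntm* had a correlation of 0.90 with that of *Negr1*, 0.81 with *Lsamp* and 0.60 with *Opcml*, and *Lsamp* and *Opcml* had 0.38. Replicate 2 was higher than replicate 1 for *Negr1* at all 3 stages (by 0.51, 0.49 and 0.90), and for *Ntm* at E10.5 and E12.5 but not at E11.5 (0.59, -0.19 and 0.75).

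**Figure D2:**
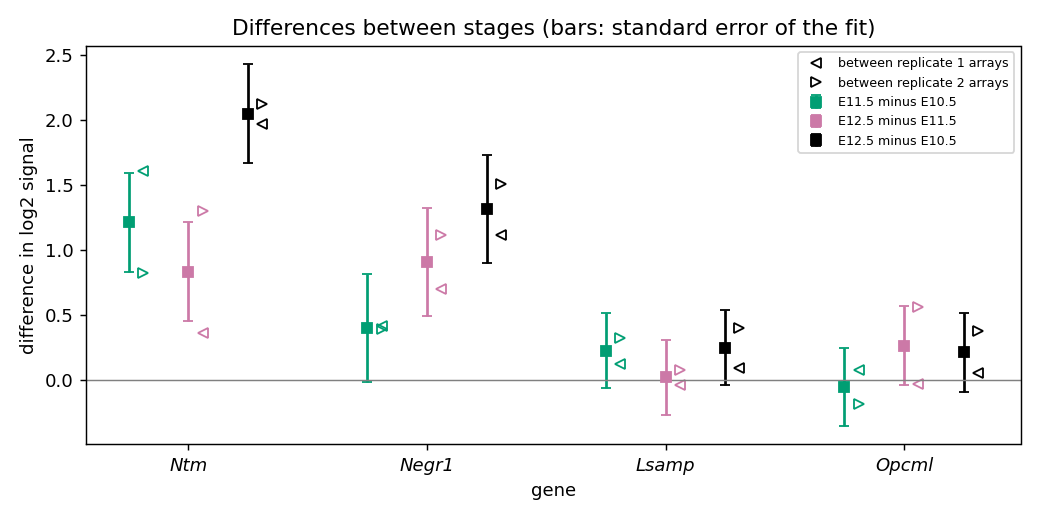
Differences in log2 signal between stages (vertical axis) for each gene (horizontal axis), where squares are estimates with their standard errors and open triangles are differences between arrays of the same replicate number. The E12.5 minus E10.5 differences of *Ntm* (2.05) and *Negr1* (1.31) lie above 0 in both replicates, and those of *Lsamp* (0.25) and *Opcml* (0.21) lie within their moderated errors.

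In a fit over all 23332 clusters with limma, 0 clusters passed an adjusted p of 0.05 in any stage comparison (0% of clusters), the members included. Without the E10.5 replicate 2 array 325 passed for E12.5 against E10.5 and 250 for E11.5 against E10.5. At an unadjusted p under 0.05, 928 clusters differed between E12.5 and E10.5, 3.98% of those tested, and 411 of them were higher, 1.76%. *Ntm* and *Negr1* were among the latter, 2 of 4 members, and since they were chosen with this comparison known nothing is read from the count. *Negr1* was no longer among them without the E12.5 replicate 2 array (unadjusted p = 0.126 in limma), without the E10.5 replicate 1 array (0.0567) or without moderation (0.0679). Between E11.5 and E10.5, 194 clusters were higher at that threshold (0.831%), *Ntm* among them, and between E12.5 and E11.5, 87 (0.373%) with no member. *Ntm* did not pass between E11.5 and E10.5 without moderation (unadjusted p = 0.0552 in limma). Nor did it pass there without the E10.5 replicate 1 array, with a difference of 0.92, or without the E11.5 replicate 1 array, with 1.12. With the replicate number as a block *Ntm* (unadjusted p = 0.0335 in limma) and *Negr1* (0.00856) passed between E12.5 and E11.5, as they did with these 2 stages alone (0.0381 and 0.0478). In either direction 637 of the 23332 clusters passed with the block and 560 with the 2 stages alone, where the main fit had 212. The members were chosen by these stage differences, and the labels do not say what samples of the same replicate number share. Nothing is therefore read from these calls either. Both E12.5 arrays were above both E10.5 arrays for all 4 members and for 9.35% of clusters. Both E11.5 arrays were above both E10.5 arrays for *Ntm* and *Lsamp* (9.48% of clusters), and both E12.5 arrays were above both E11.5 arrays for *Ntm* and *Negr1* (8.46%). The difference of *Ntm* exceeded that of 99.87% of the clusters that name 1 gene, that of *Negr1*, measured from background, 99.35%, that of *Lsamp* 81.40% and that of *Opcml* 79.51%. Over all clusters the median difference was -0.10, which quantile normalization brought to -0.025 and centring on medians to 0.031. An exact permutation test of 2 arrays against 2 cannot give a p below 0.333.

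**Figure D3:**
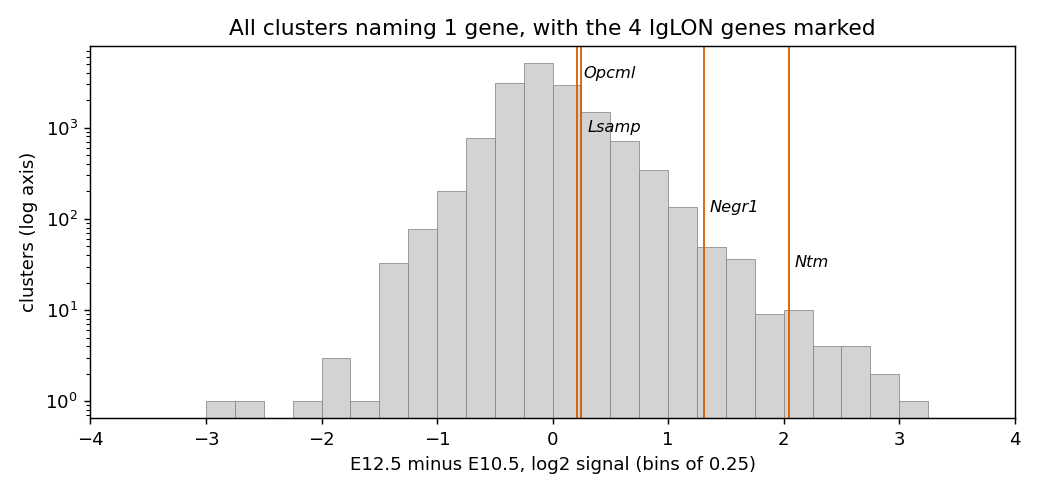
Number of clusters that name 1 gene (vertical log axis) by difference in log2 signal between E12.5 and E10.5 (horizontal axis, bins 0.25 wide), with the 4 IgLON genes as vertical lines. *Ntm* and *Negr1* lie in the upper tail, and *Lsamp* and *Opcml* lie near the bulk.

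Other adhesion genes gave a scale for these differences. *Ntm* leads the family because of its difference, and the lists were chosen with earlier results known. The ranks below are therefore a description only. Over 47 measured genes of other GPI-anchored surface proteins and of transmembrane adhesion proteins of the immunoglobulin superfamily, 1 had a larger difference between E12.5 and E10.5 than *Ntm*. This was *Ncam2*, a relative of the neural cell adhesion molecule, at 2.14 (standard error 0.32). *Negr1* was exceeded by 3 of the 47 (*Ncam2*, *Cntn1* and *Nrn1*), and *Lsamp* and *Opcml* by 20 each. Without the E10.5 replicate 1 array *Ntm* was exceeded by 2 (*Cntn1* and *Ncam2*), *Negr1* by 4, and *Lsamp* and *Opcml* by 23 and 30. Among the 27 GPI-anchored proteins, which share their mode of anchoring with the IgLONs, 11 had a mean signal above the limit. The median over all 27 was 0.15, with 4 higher and 0 lower at an unadjusted p under 0.05 (background 1.76% and 2.22%). The contactin *Cntn1* (1.89) and *Nrn1* (1.59), which encodes the neurite-promoting protein neuritin, were at the upper end. The value of *Nrn1* rested on the E10.5 replicate 1 array (5.41, where replicate 2 had 7.63) and was 0.48 without it, while that of *Cntn1* was 2.05. *Rtn4rl2* (-0.41), a relative of the Nogo receptor, and the glypican *Gpc3* (-0.96) were at the lower end, and without that array they had 0.22 and -1.64. Among the 20 transmembrane proteins, of which 15 were above the limit, the median was 0.12, with 5 higher and 0 lower at that threshold. After *Ncam2* the largest difference was that of *Chl1* (1.18), a relative of L1, and the smallest were those of *Nectin3* (-0.44) and *Mcam* (-0.76). The medians of both lists depended on the replicate, at 0.019 and -0.13 in replicate 1 and 0.37 and 0.50 in replicate 2, and leaving out the first E10.5 array gave 0.26 and 0.46.

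**Figure D4:**
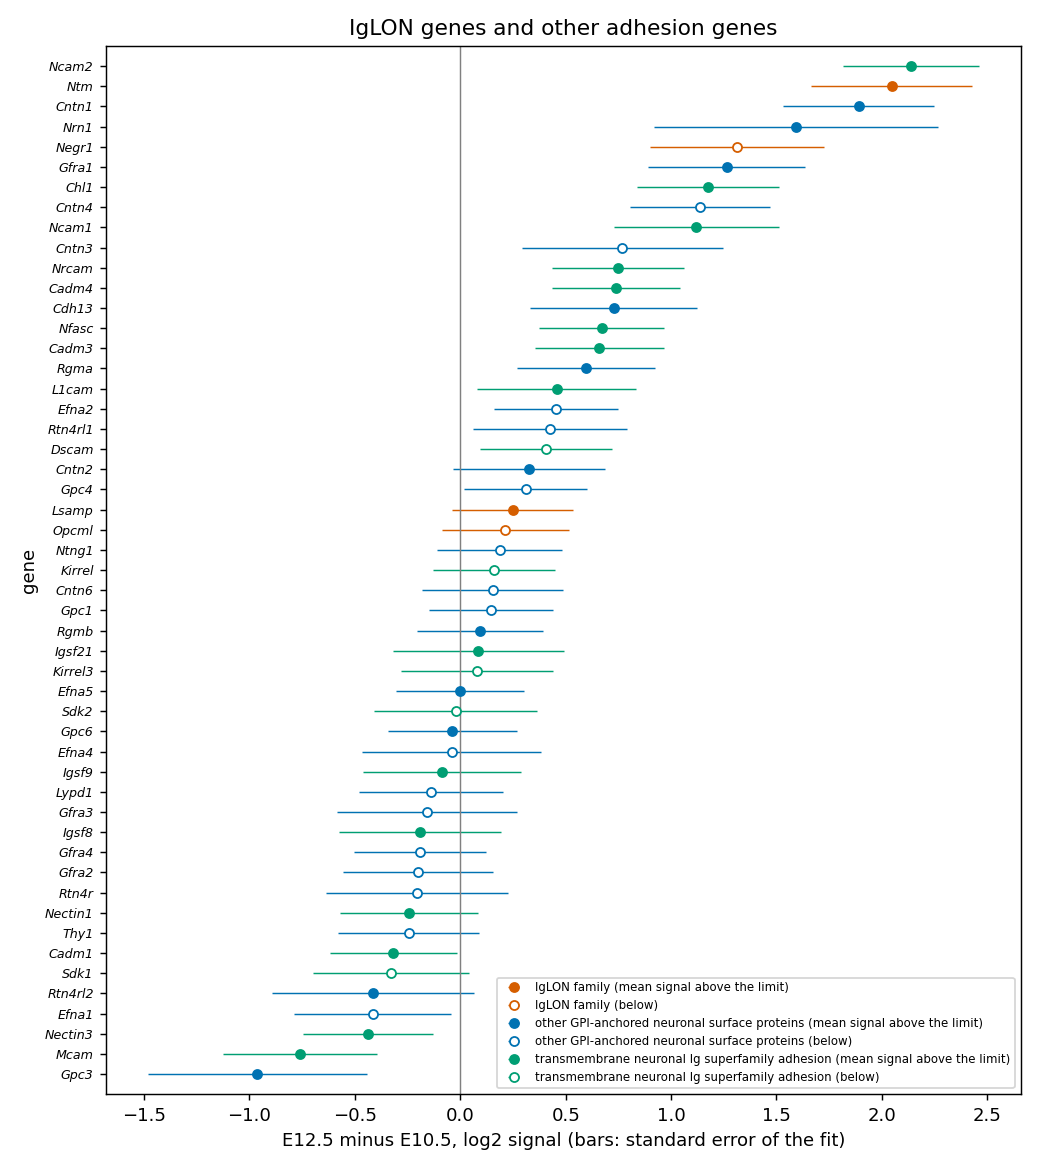
Difference in log2 signal between E12.5 and E10.5 (horizontal axis, bars are standard errors) for the 4 IgLON genes and 47 other adhesion genes (vertical axis, sorted), with open points for genes whose mean signal was below the detection limit. *Ntm* is next to the top under *Ncam2*, and *Lsamp* and *Opcml* lie in the middle.

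Most genes that make the anchor of the IgLONs had small measured differences. Of the 22 measured, 13 had a mean signal above the limit, and differences in the rest may be hidden by background. Over 22 measured genes of GPI anchor synthesis and attachment the median over these 2 days was a difference of 0.012, with 12 above 0 and 10 below, and 1 of the 22 passed an unadjusted p of 0.05, where 3.98% of all clusters did. That gene was *Pigc* (0.78, standard error 0.29), which encodes a subunit of the enzyme that starts anchor synthesis. Next came *Pigm* (0.29, but 0.81 in replicate 1 and -0.22 in replicate 2), and at the lower end were *Pgap2* (-0.23) and *Pigf* (-0.25, or -0.55 without the E10.5 replicate 1 array). Of reported IgLON partners and of proteases that release surface proteins, 6 were measured, 4 of them with a mean signal above the limit. The median of all 6 was 0.57, or -0.042 without the E10.5 replicate 1 array. Of these 6, 0 passed the unadjusted threshold (background 3.98%). *Adam10*, a protease that sheds NEGR1 from neurons, had 0.81 (standard error 0.47), with 1.16 in replicate 1 and 0.47 in replicate 2, and 0.18 without that array. *Npc2*, a lysosomal cholesterol carrier reported to bind NEGR1, had 0.74, with 1.37 in replicate 1 and 0.10 in replicate 2, and -0.31 without that array. *Fgfr2*, a receptor through which NEGR1 acts, had 0.11, with 0.66 and -0.44. *Mmp16* had 0.52, with 0.41 and 0.62.

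The summed signal of neuron markers was highest at E12.5, and the place of the IgLON genes among these markers differed. The sum of the linear signals of 15 neuron markers ranged from 13.14 to 13.29 at E10.5 on the log2 scale, from 13.37 to 13.42 at E11.5 and from 13.47 to 13.84 at E12.5. Of these markers 14 had a mean signal above the limit, and 12 were higher in both E12.5 arrays than in both E10.5 arrays (9.35% of all clusters were). At an unadjusted p under 0.05, 5 of 15 were higher and 0 lower (background 1.76% and 2.22%), and 0 passed after adjustment. *Nefm* (-0.68) was lower in both E12.5 arrays, and *Stmn2* (0.62) and *Dcx* (0.64) did not pass either threshold. The median difference was 0.64, and 0.48 without the E10.5 replicate 1 array. That of *Ntm* was greater than the differences of all 15, at the level of stage means, and of 14 of 15 between the replicate 1 arrays. That of *Negr1* was greater than 13 of 15, and those of *Lsamp* and *Opcml* were greater than 2 of 15. Without the E10.5 replicate 1 array these counts were 15, 12, 4 and 3 for *Ntm*, *Negr1*, *Lsamp* and *Opcml*. The members were chosen by their stage differences, so these counts only describe them. Progenitor markers, of which 13 of 14 were above the limit, had a median of -0.46, with summed signals of 12.59 to 13.03 at E10.5 and 12.45 to 12.61 at E12.5. The sorted cells thus held RNA of progenitors as well as of neurons at all stages.

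Other cells with a *Wnt1-cre* history, or carried through the sort, were followed by their markers. Of 9 measured markers of dorsal root ganglion neurons, which come from the neural crest, 4 were above the limit (*Isl1*, *Ntrk2*, *Pou4f1* and *Ntrk3*) and 5 below it, *Prph* and *Avil* among them. The median difference was -0.12, or 0.15 without the E10.5 replicate 1 array, and the summed signals ranged from 9.85 to 10.04 at E10.5 and from 10.14 to 10.48 at E12.5. The study itself stained for the products of *Isl1* and *Pou4f1* to mark neurons of the dorsal spinal cord, so this sum does not single out ganglion neurons. For neural crest and Schwann cell precursors the median was -0.33 over 6 markers, 4 of them above the limit, with sums of 10.74 to 11.37 at E10.5 and 11.04 to 11.12 at E12.5. *Fabp7*, which is also on the progenitor list, made up 57.2% to 74.1% of that sum, and without it the sums were 9.52 to 10.01 at E10.5 and 9.10 to 9.19 at E12.5. Mesenchyme (11 measured, 2 above the limit) had sums of 9.07 to 9.21 at E10.5 and 8.31 to 8.62 at E12.5. In E10.5 replicate 2 *Postn* alone made up 45.7% of the sum, and without it the ranges were 8.33 to 8.96 and 8.26 to 8.56, which overlap. Judged by the mean over all arrays, 0 markers of skeletal muscle or endothelium were above the limit. For microglia it was 1 of 8 (*Cx3cr1*) and for red blood cells 1 of 3 (*Alas2*). That mean can hide signal at a single stage. The muscle gene *Mstn* had 6.07 and 7.75 at E10.5, the second above its array's limit of 5.37, and 4.88 and 3.71 at E12.5. Muscle sums were 7.95 and 8.36 at E10.5, and 7.26 and 6.85 at E12.5. *Cx3cr1* had 8.06 and 6.19 at E10.5, and 6.18 and 6.07 at E12.5. The part of these lists in the values of the IgLON genes was not tested.

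**Figure D5:**
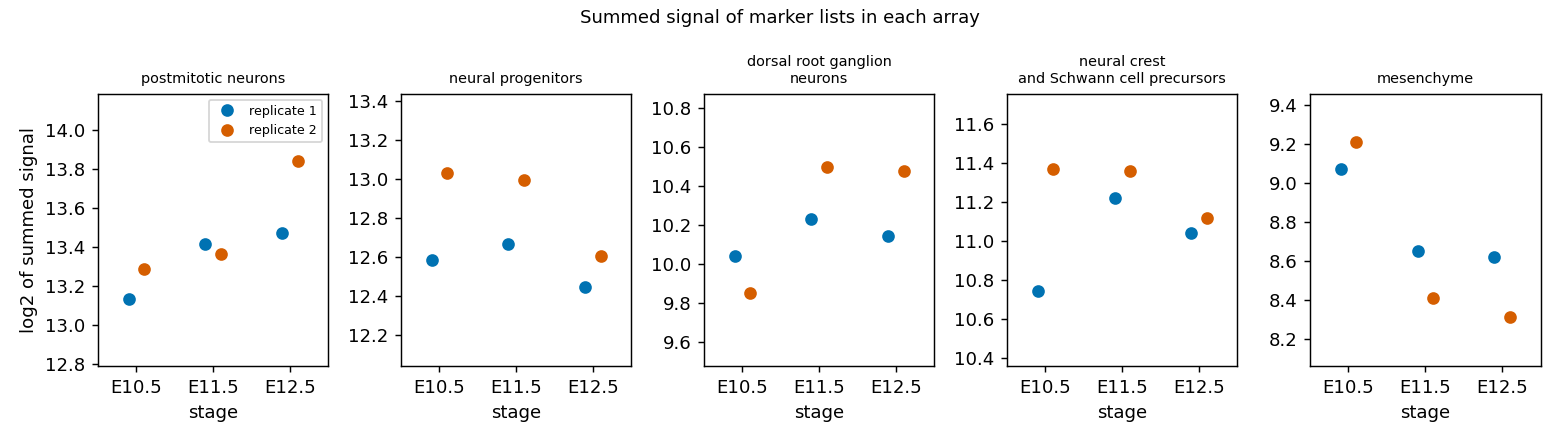
Log2 of the summed signal (vertical axis, each panel spanning the same range of 1.4) of 5 marker lists at each stage (horizontal axis), with a point for each array. Neuron markers were highest at E12.5 and mesenchyme markers at E10.5, where *Postn* made up 45.7% of the sum in replicate 2, while the sums of progenitor markers differed between replicates as much as between stages.

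Genes whose pattern was most like that of each member were ranked by Pearson correlation over the 6 arrays, among genes with a mean signal above the limit. With 6 arrays in 3 stages many genes correlate closely, and 290 of 6675 had a correlation above 0.9 with *Ntm*. The closest to *Ntm* were *Pcyt1b* (0.997), *Tmeff1* (0.996), *Cbln2* (0.994), which encodes a secreted synaptic organizer, *Nfasc* (0.994), *Agap1* (0.994), *Ank3* (0.994), *Pigc* (0.994), *Disp2* (0.992), *Gstm7* (0.992) and *Hecw1* (0.992). Their differences between E12.5 and E10.5 were smaller than that of *Ntm*, from 0.67 for *Nfasc* to 1.67 for *Gstm7*. The closest to *Negr1* were *Fstl5* (0.992), *Rufy3* (0.989), *Gabrb2* (0.988), the guidance receptor *Robo1* (0.988) and *Nisch* (0.986), with 242 genes above 0.9. *Negr1* itself was above the limit on 1 of the 6 arrays, so these correlations rest mostly on signals at background. Fewer genes followed the flatter members. With *Lsamp* 73 genes correlated above 0.9, *Cttn*, which encodes the actin regulator cortactin, most closely (0.990), followed by *Prkca*, *Dgcr2*, *Cd9* and *Flcn*. With *Opcml*, whose mean signal was below the limit, 7 did, led by *Chd3* (0.971), *Wdr6*, *Nkain4*, *Scg5* and *Rb1cc1*. Without the E10.5 replicate 1 array, the 1 array left out for these ranks, 1 of the 10 genes stayed among the first 10 for *Ntm*, although all 10 kept a correlation of 0.985 to 0.999, and 0 of 5 stayed for *Negr1*.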

How the data were processed

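RNA of sorted GFP+ cells was profiled on GeneChip Mouse Exon 1.0 ST arrays, 2 per stage. The authors deposited normalized log2 signals of 23332 transcript clusters, which per the labels were made with oligo on mm9, with the version and settings not given in the sources used here. Gene symbols came from the platform's table, which gives 1 symbol for 14996 clusters and several for 1019 and does not list 7317. The values were used as deposited, without a filter.

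The stage comparison was a linear model in limma 3.58.1 under R 4.3.3 (a mean per stage, moderated variances, Benjamini-Hochberg adjustment over all clusters), a design fixed without a stated one in the methods. The fit was tested on simulated data. Standard errors come from it. Differences between replicate pairs, marker sums (linear signals added) and correlations were computed from the same values. The members and lists were chosen with earlier results of these data known. Genes were named by rule: the members, the extremes above the detection limit in each list, and the 10 (*Ntm*) or 5 genes most correlated with a member. From marker lists, *Stmn2*, *Dcx*, *Prph* and *Avil* were named as genes that define a cell type. *Ncam2*, *Cntn1*, *Cx3cr1*, *Alas2*, *Nefm*, *Isl1*, *Ntrk2*, *Pou4f1*, *Ntrk3*, *Fabp7*, *Postn* and *Mstn* were also named, after their values were seen, where a count or sum rested on them. Promoter windows are from RefSeq (GRCm38.p6), and all 4 members matched by symbol. Alternatives were other scalings, a replicate block, other cluster sets and moderation, 2 stages alone, and leaving out arrays. Precision is limited by the number of arrays. Sequences and figures were handled with pandas 2.3.3 and matplotlib 3.10.9 (Python 3.11.15).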

Additional observations from a re-analysis of the deposited data

How the results depend on the processing

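The difference between E12.5 and E10.5 kept its sign for all 4 members under every scaling, model and left-out array. With E10.5 signals below the limit of their array set to it, *Ntm* had 1.60, *Lsamp* had 0.23, *Negr1* turned to -0.20 and *Opcml* to -0.25. That setting was chosen after seeing the data. It left E12.5 signals below their limit as measured, so the 2 turned signs do not show lower signals at E12.5. For *Ntm* quantile normalization gave 2.14 and centring on array medians 2.18, and it ran from 1.67 to 2.42 when 1 array was left out. For *Negr1* it was 1.41 and 1.45, and 0.86 to 1.76. For *Lsamp* it was 0.38 after centring and ran from 0.15 to 0.35 without single arrays, and for *Opcml* from 0.064 to 0.36. The sign between E11.5 and E10.5 turned for *Opcml*, to 0.066 under quantile normalization and 0.038 after centring, and ran from -0.20 to 0.092 without single arrays. For *Lsamp* the step from E11.5 to E12.5 ran from -0.078 to 0.12. The cause was not tested.

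Also chosen after seeing the data, leaving out the E10.5 replicate 1 array turned *Npc2* to -0.31, *Fgfr2* to -0.46, *Pigm* to -0.50 and *Rtn4rl2* to 0.22. The difference of summed crest markers turned from 0.023 to -0.62 without *Fabp7*, and that of mesenchyme markers went from -0.68 to -0.24 without *Postn*.

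A replicate block left every difference as it was, since each number occurs once per stage, and lowered the standard error of *Ntm* from 0.38 to 0.30 and of *Negr1* from 0.41 to 0.23. The labels do not say what samples of the same number share. The differences between replicates 2 and 1 correlated across clusters between stages by 0.46, 0.47 and 0.48. With the block 0 clusters passed the adjusted threshold, and 2098, 1243 and 637 passed unadjusted for E12.5 against E10.5, E11.5 against E10.5 and E12.5 against E11.5, where the fit without it gave 928, 465 and 212.

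Adjusted counts were 0 in every setting but 1. Leaving out single arrays gave 0 to 325 clusters for E12.5 against E10.5 and 0 to 250 for E11.5 against E10.5, and the counts above 0 were without the E10.5 replicate 2 array, which leaves only the least typical array for E10.5. In the same order of comparisons, unadjusted counts were 557, 189 and 91 among clusters above the limit and 565, 155 and 100 among clusters naming 1 gene. They ran from 533 to 5174, 207 to 4826 and 112 to 560 without single arrays. With the 2 compared stages alone 601 passed for the first and 560 for the last, which had 351 after quantile normalization and 379 without moderation. Of the genes most like a member, 3 of 10 stayed among the first 10 for *Ntm* with the replicate means removed, and for *Lsamp*, *Opcml* and *Negr1* 1, 2 and 3 of 5. Without the E10.5 replicate 1 array 1 of 10 stayed, and 0, 2 and 0 of 5. Averaging several clusters of a gene was not run, since each member has 1, and *Opcml* and *Negr1* have no value among clusters above the limit. Differences of *Negr1* and *Opcml* are limited by signals near background.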
